A study of Saccharomyces cerevisiae with 4 samples.

Results

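The 10 genes described here make, break down and regulate glycogen in Saccharomyces cerevisiae. They were chosen by symbol (GSY1, GSY2, GLG1, GLG2, GLC3, GPH1, GDB1, GAC1, PIG1 and PIG2), and all 10 were found among the 7126 features of the deposited table. RNA-seq was run on 4 samples of 1 strain, CRY, a MATa strain whose genotype label names ade2, his3, leu2, trp1 and ura3 as deleted. The 2 control samples grew for 18 h in the rich medium YPD with 2% glucose and an estimated 0.0036 mM manganese. The 2 manganese-adapted samples grew for 120 h in that medium with manganese sulfate added to 2.5 mM. Both groups were harvested in the stationary stage, but they differ in culture time as well as in manganese, and the effects of time and manganese cannot be told apart. The labels do not say that replicates were separate cultures, so the p-values speak only to variation among the 4 libraries, part of which may be technical.

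Glycogen is a branched polymer of glucose that yeast stores as growth slows and draws on when outside carbon runs out. The glycogenins Glg1 and Glg2 start a chain by attaching glucose to themselves, the synthases Gsy1 and Gsy2 extend it from UDP-glucose, and Glc3 adds the branches. The phosphorylase Gph1 shortens the outer chains, and the debranching enzyme Gdb1 removes the branches that stop it. Synthase is inactivated by phosphorylation and reactivated by the protein phosphatase Glc7 (PP1), which the targeting subunits Gac1, Pig1 and Pig2 bind.

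The libraries held 12307870 to 14184276 reads, and each of the 10 genes had at least 374 reads in every library. CPM, reads per gene scaled to a common library size, show the share of a gene in the library, so a change in total mRNA would not be seen. Of 4 genes specific to MATa cells, such as the receptor gene STE2 (59.8 to 113 CPM), 1 rose and 3 fell, and their summed level was 166 to 187 CPM in the controls and 143 to 146 CPM after adaptation to manganese. Of 4 genes specific to alpha cells, such as the receptor gene STE3 (5.41 to 30.2 CPM), 3 rose and 1 fell, and their summed level was 66.7 to 69.5 and 138 to 148 CPM. Over all 6296 features tested, 33.6% rose and 34.9% fell, so counts in lists of 4 genes say little. With the length trend removed 2 of the MATa genes rose and 1 fell, and the fall among the alpha-cell genes was lost, as it was with DESeq2 and without manganese-adapted replicate 1; a filter of 10 CPM left that gene untested. Of the MATa genes 2 fell, and not 3, with a filter of 10 CPM, with library size scaling only, with edgeR and with DESeq2. Neither list thus moved as a whole. The part of these differences in the results on glycogen genes was not tested. Reads were counted at all 5 genes that the genotype label gives as deleted, from 37.0 CPM (HIS3) to 830 CPM (LEU2), which does not match complete deletions. In R64 none of the 10 glycogen genes overlaps another annotated gene, each is 1 coding exon, and no stretch of 50 bases of their coding sequences was found anywhere else in the genome, the paralogs included.

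The glycogen genes did not move together. In the manganese-adapted libraries 4 of 10 rose (PIG1, GAC1, GLG2 and GLC3), 4 fell (GSY2, GPH1, GDB1 and PIG2) and 2 did not pass the test (GSY1 and GLG1; limma-trend on log2(CPM + 1), adjusted p under 0.05 over 6296 features). Over all features tested, 68.5% were called, 33.6% as higher and 34.9% as lower, so the share of glycogen genes called is near the background in the first count and in each direction. The median log2 fold change was 0.09 over the 10 genes and -0.01 over all features. The 2 groups did not overlap for 9 of the 10 genes, against 85.7% of all features. In the authors' deposited table, the false discovery rate was under 0.05 for 8 of the 10 genes and for 59.2% of features. That share is over all 7126 features, 574 of which had 0 reads in every library, and the 68.5% is over the 6296 tested.

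**Figure D1:**
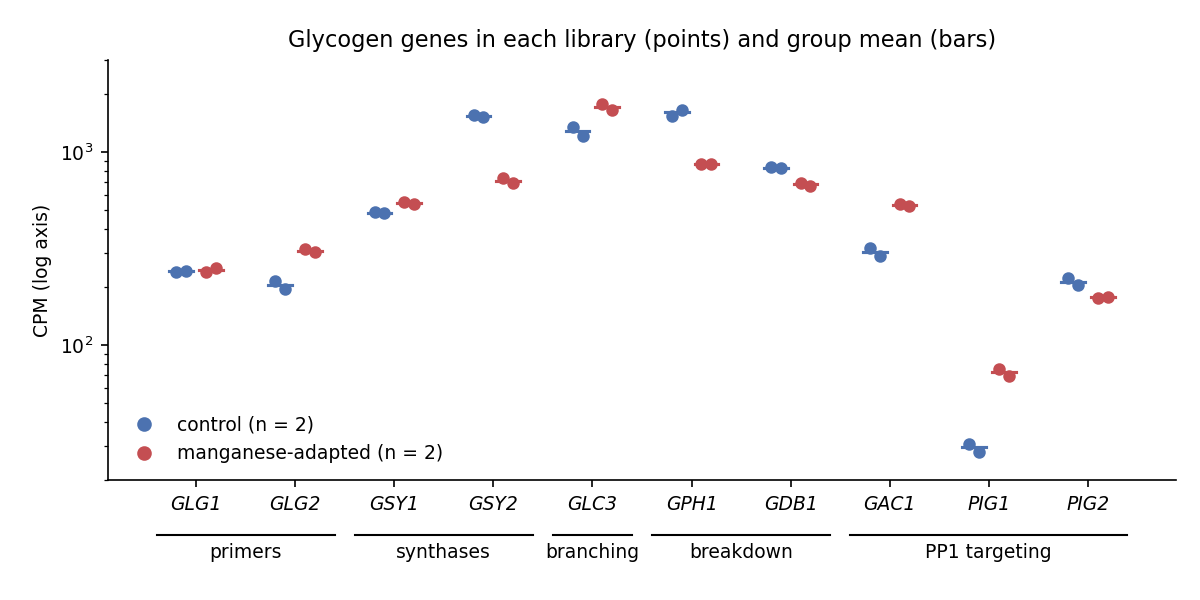
CPM of the 10 glycogen genes (vertical log axis) in each control (blue) and manganese-adapted (red) library, with the group mean as a bar and the genes ordered by role. GSY2 and GPH1 lie lower in both manganese-adapted libraries, PIG1, GAC1, GLG2 and GLC3 lie higher, and the groups overlap for GLG1.

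The synthase pair split. GSY2 (YLR258W, R64 chromosome XII, 660716 to 662833, plus strand), the major synthase of cells entering stationary phase, was at 1557 and 1519 CPM in the control libraries and at 732 and 690 CPM in the manganese-adapted libraries. Both manganese-adapted values were less than either control value, and the groups lay far apart against the spread within them. GSY2 fell by 1.11 on the log2 scale (SE 0.11, limma adjusted p 1.09e-05), a control level 2.16-fold the manganese-adapted one, and ranked 780th of 6296 features by size of change. GSY1 (YFR015C, chromosome VI, 174265 to 176391, minus strand), the other synthase, was at 490 and 481 CPM in the controls and 552 and 538 CPM after adaptation to manganese. Its values were higher in both manganese-adapted libraries, but the log2 difference of 0.17 did not pass (95% interval -0.04 to 0.37, adjusted p 0.130).

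The proteins encoded by GSY1 and GSY2 have 708 and 705 residues and are 82.0% identical over 704 aligned positions. Per kilobase of coding length, GSY2 made up 76.2% and 76.0% of the synthase level in the control libraries and 57.1% and 56.3% in the manganese-adapted libraries. The ratio of GSY2 to GSY1 per kilobase thus went from 3.18 ± 0.02 to 1.31 ± 0.03 (SD, n = 2 per group). The summed synthase level per kilobase was 954 ± 15.3 CPM in the controls and 592 ± 18.8 CPM after adaptation to manganese. Ratios and sums were not tested here and are given as descriptions: an exact two-sided permutation test of 2 samples against 2 reaches no p under 0.333, and they were no part of the limma fit.

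The branching enzyme gene rose while GSY2 fell. GLC3 (YEL011W, chromosome V, 133120 to 135234, plus strand), the branching enzyme, was at 1348 and 1211 CPM in the controls and 1773 and 1660 CPM after adaptation to manganese. All manganese-adapted values lay above the controls, and GLC3 rose by 0.42 on the log2 scale (SE 0.13, limma adjusted p 0.0156). Per kilobase, GLC3 stood at 0.634 ± 0.038 of the summed synthases in control and 1.37 ± 0.02 in manganese-adapted libraries (SD, n = 2). GLC3 missed the threshold when control replicate 2 (adjusted p 0.116) or manganese-adapted replicate 1 (0.0830) was left out, and once the trend with coding length was taken away (log2 fold change 0.18, adjusted p 0.202).

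The primers also differed. GLG2 (YJL137C, chromosome X, 154985 to 156127, minus strand) was at 214 and 196 CPM in the controls and 313 and 305 CPM after adaptation to manganese. It lay higher in both manganese-adapted libraries and rose by 0.59 on the log2 scale (SE 0.09, limma adjusted p 0.000134). GLG1 (YKR058W, chromosome XI, 552770 to 554620, plus strand) was at 240 and 242 CPM in the controls and 239 and 250 CPM after adaptation to manganese. The groups overlapped, with a log2 difference of 0.02 (95% interval -0.16 to 0.20, adjusted p 0.839). The encoded glycogenins have 616 (Glg1) and 380 (Glg2) residues and are 44.5% identical over 373 aligned positions. GLG2 made up 59.0% and 56.8% of the primer level per kilobase in control and 68.0% and 66.4% in manganese-adapted libraries. In R64 each primer gene has a gene of translation initiation factor eIF4A as a direct neighbour, TIF1 for GLG1 and TIF2 for GLG2.

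Both breakdown genes fell. GPH1 (YPR160W, chromosome XVI, 861306 to 864014, plus strand), glycogen phosphorylase, was at 1547 and 1661 CPM in the controls and 870 and 871 CPM after adaptation to manganese. The manganese-adapted libraries were almost equal and far under both controls, and GPH1 fell by 0.88 on the log2 scale (SE 0.12, limma adjusted p 7.82e-05). GDB1 (YPR184W, chromosome XVI, 902044 to 906654, plus strand), the debranching enzyme, was at 833 and 830 CPM in the controls and 691 and 669 CPM after adaptation to manganese. Both groups were tight and did not overlap, and GDB1 fell by 0.29 on the log2 scale (SE 0.10, limma adjusted p 0.0270). That call was lost when any 1 of the 4 libraries was left out: adjusted p 0.0573 without control replicate 1, 0.0560 without control replicate 2, 0.0759 without manganese-adapted replicate 1 and 0.111 without manganese-adapted replicate 2. Corrected for coding length, the fall was larger (log2 fold change -0.63, adjusted p 0.000156).

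The ratio of synthase to phosphorylase transcripts moved less than either level. The summed synthases stood at 1.69 and 1.54 times GPH1 per kilobase in the control libraries and at 1.88 and 1.8 times in the manganese-adapted libraries. The breakdown genes together went from 772 ± 29.3 to 469 ± 3.11 CPM per kilobase (SD, n = 2 per group), close in proportion to the summed synthases (manganese-adapted to control 0.607 and 0.620).

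Among the targeting subunits, which bring PP1 to glycogen synthase, GAC1 and PIG1 rose and PIG2 fell. PIG1 (YLR273C, chromosome XII, 689083 to 691029, minus strand) was at 30.9 and 28.1 CPM in the controls and 75.1 and 69.5 CPM after adaptation to manganese. It was the rarest of the 10 transcripts in all 4 libraries and rose by 1.27 on the log2 scale (SE 0.10, limma adjusted p 1.87e-06), ranked 538th of 6296 features. That was the greatest change among the 10 genes, but GSY2 changed more with the coding length trend removed (-1.36 against 1.04 for PIG1, with GPH1 at -1.16) and with a pseudocount of 10 CPM (-1.10 against 1.06). GAC1 (YOR178C, chromosome XV, 667860 to 670241, minus strand), the main subunit for glycogen accumulation, was at 317 and 291 CPM in the controls and 541 and 526 CPM after adaptation to manganese. It rose by 0.81 on the log2 scale (SE 0.09, limma adjusted p 2.22e-05), with no overlap between groups. PIG2 (YIL045W, chromosome IX, 271161 to 272777, plus strand) was at 222 and 204 CPM in the controls and 176 and 178 CPM after adaptation to manganese. The groups lay close but apart, and PIG2 fell by 0.27 on the log2 scale (SE 0.08, limma adjusted p 0.0164). It missed the threshold when control replicate 1 (adjusted p 0.0640), manganese-adapted replicate 1 (0.102) or manganese-adapted replicate 2 (0.0844) was left out. Corrected for coding length, the fall was larger (-0.43, adjusted p 0.000848).

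The subunits are distant relatives, with GAC1 and PIG1 products 33.7% identical over 608 aligned positions. GIP2, which encodes a PP1 subunit 41.8% identical to Pig2 over 469 positions, is not among the 10 genes and rose, from 183 and 181 to 299 and 297 CPM (log2 fold change 0.71, SE 0.08, limma adjusted p 2.31e-05). GIP2 made up 44.7% and 46.5% of the summed PIG2 and GIP2 level per kilobase in control and 62.6% and 62.1% in manganese-adapted libraries. GLC7, the catalytic subunit that all of these bind, was at 494 ± 40.8 and 462 ± 7.26 CPM (SD, n = 2) and did not pass (log2 fold change -0.09, adjusted p 0.418).

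**Figure D2:**
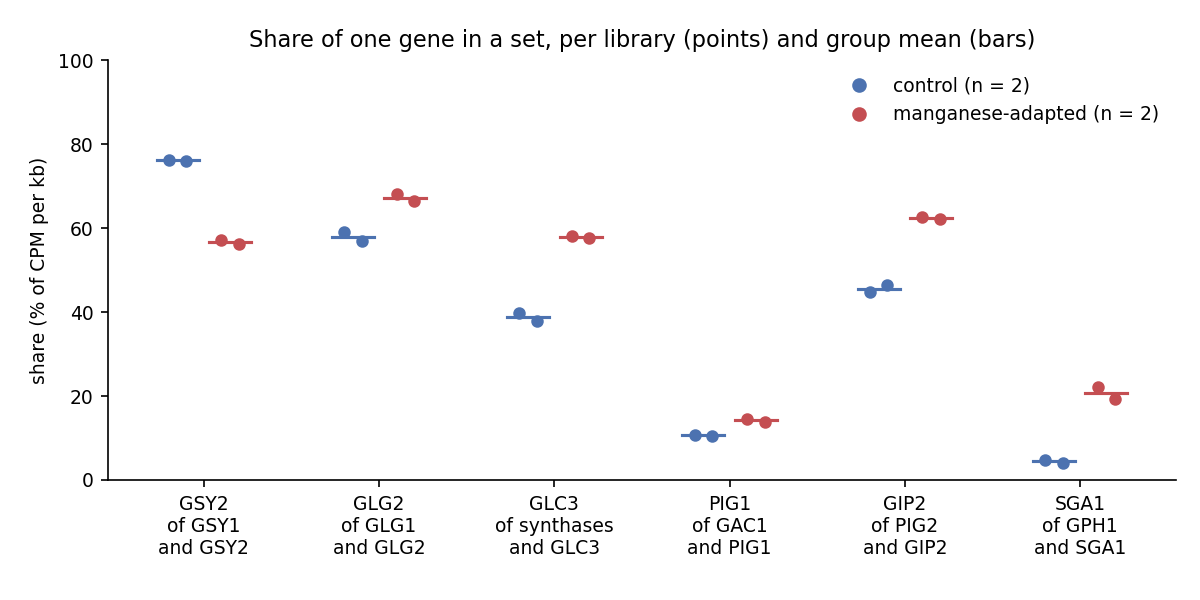
Share of 1 gene in the summed level of the named genes (percent of CPM per kilobase of coding length) in each control (blue) and manganese-adapted (red) library, with group means as bars. GSY2 goes from 76.1% to 56.7% of the synthases, and the other 5 shares are higher in both manganese-adapted libraries.

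**Figure D3:**
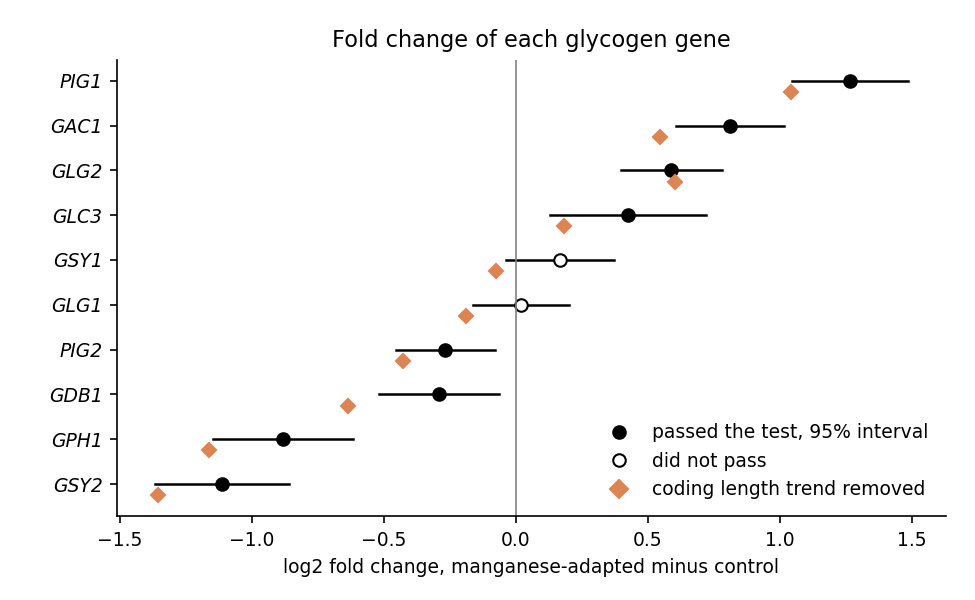
Log2 fold change (manganese-adapted minus control, horizontal axis) of each glycogen gene with its 95% interval from limma. Filled circles passed the test, open circles did not, and diamonds give the value with the coding length trend removed, which is lower for every gene but GLG2.

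Ordered by level per kilobase, GSY2 led in control libraries at 726 CPM per kilobase, followed by GLC3 (605), GPH1 (592), GSY1 (228), GDB1 (180), GLG2 (179), PIG2 (132), GLG1 (130), GAC1 (128) and PIG1 (15.1). Within that order GLC3 and GPH1, GDB1 and GLG2, and PIG2, GLG1 and GAC1 overlapped between the 2 libraries. In manganese-adapted libraries GLC3 led at 811 CPM per kilobase, ahead of GSY2 (335.5), GPH1 (321), GLG2 (270), GSY1 (256), GAC1 (224), GDB1 (147.5), GLG1 (132), PIG2 (109.5) and PIG1 (37.1). There no neighbours overlapped, though each range rests on 2 libraries. All 10 genes together held 6731 ± 94.9 CPM in the controls and 5859 ± 146 CPM after adaptation to manganese (SD, n = 2).

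Coding length moved with the fold change across the table. Tested genes of up to 500 bases had a median log2 fold change of -0.59 (851 genes), and those of 2000 to 3000 bases one of 0.26 (801 genes). The glycogen genes run from 1143 bases (GLG2) to 4611 bases (GDB1), with a median of 2116.5 bases against 1209 over the tested features with a length. Among the 2947 tested features in that range of lengths 1353 rose, 587 fell and 1007 did not pass, with a median of 0.18. GSY2 and GPH1 thus fell in a range where more features rose than fell. With the length trend removed the median of the 10 genes was -0.13, and 3 rose and 4 fell. Of all 5769 features in that version 1929 rose and 1928 fell, so the counts of glycogen genes are near this background. The log2 fold changes were then -1.36 for GSY2, -1.16 for GPH1, 0.60 for GLG2, 0.55 for GAC1 and 1.04 for PIG1. The part of RNA quality or library preparation in this trend was not tested.

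**Figure D4:**
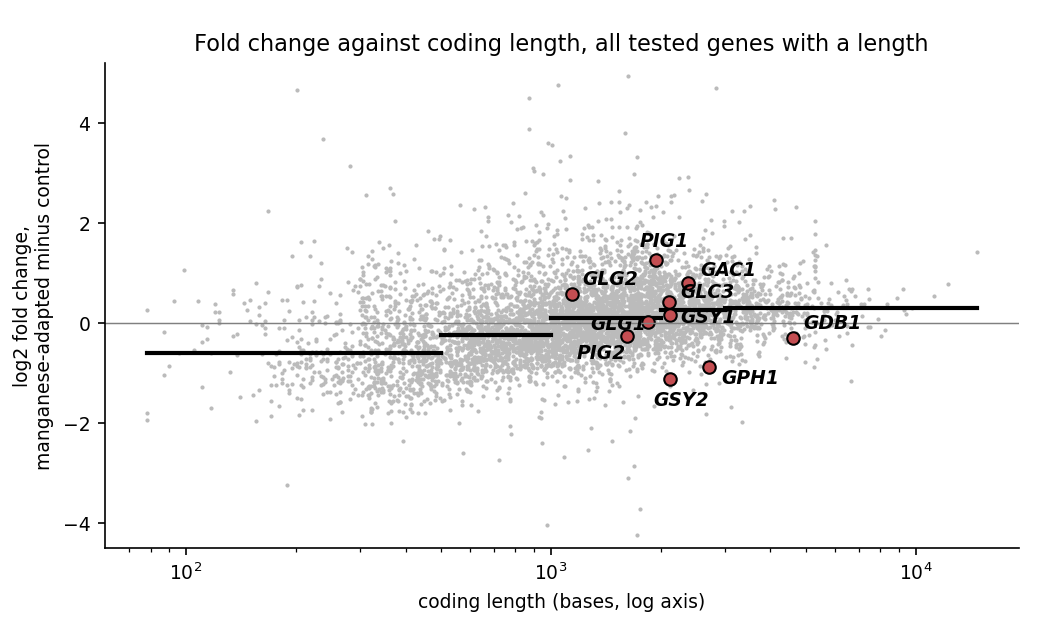
Log2 fold change (manganese-adapted minus control) against coding length (log axis) for each tested gene with a length (grey) and the 10 glycogen genes (red). Black bars are medians over length classes and climb from -0.59 to 0.31, and GSY2 and GPH1 lie under the bars of their classes.

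The genes that feed glycogen synthesis were mostly lower. Of 7 genes of glucose phosphorylation and UDP-glucose supply 6 fell and 1 did not pass (median log2 fold change -0.50). Over all features 34.9% were lower and 33.6% higher. The hexokinase gene HXK1 went from 2688 and 2915 CPM to 1362 and 1223 CPM (log2 fold change -1.12, SE 0.15, limma adjusted p 6.13e-05). HXK2, the other hexokinase, was at 335 and 457 CPM in the controls and 197 and 186 CPM after adaptation to manganese (-1.02, SE 0.13). UGP1, which makes the UDP-glucose that synthase uses, went from 440 and 491 CPM to 285 and 270 CPM (-0.74, SE 0.09, limma adjusted p 4.79e-05, the same as for HXK2). The 6 calls include PGM2 (adjusted p 0.0368), which was lost with the replicate block (0.0568), with edgeR on recovered reads (0.0530) and when any 1 library was left out (0.0628 to 0.115). GLK1 (0.0384) was lost with no filter on low values (0.0573) and when either control replicate (0.0949 without the first, 0.113 without the second) or manganese-adapted replicate 2 (0.188) was left out.

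SGA1, the glucoamylase of sporulating cells that breaks glycogen down in the vacuole, rose from 48.0 and 43.3 CPM to 151.5 and 127 CPM (log2 fold change 1.58, SE 0.11, limma adjusted p 6.54e-07). Per kilobase it was 4.85% and 4.10% of the sum with GPH1 in control libraries and 22.2% and 19.3% in manganese-adapted libraries. Its rise is opposite in sign to the falls of GPH1 and GDB1.

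Of 14 other PP1 genes 5 rose and 5 fell (median -0.13), near the shares over all features (33.6% higher and 34.9% lower). The greatest changes were in GIP1, a sporulation subunit (log2 fold change 1.00), YPI1, which binds Glc7 in the nucleus (-0.83), BUD14 (0.82) and GIP2. Counts for this list depended on the setting: 3 rose with the coding length trend removed or without manganese-adapted replicate 1, and 2 fell when 1 of the manganese-adapted replicates was left out, whichever it was. Of 18 kinase and cyclin genes that act on glycogen synthase or its supply 8 rose and 4 fell (median 0.15). RIM15, a kinase of stationary phase entry, went from 78.9 ± 1.99 to 163 ± 5.94 CPM (1.03), SNF4, the activating subunit of the Snf1 kinase, from 167 ± 3.10 to 90.0 ± 2.09 CPM (-0.88), and PCL7, a Pho85 cyclin, from 510 ± 47.4 to 333 ± 2.79 CPM (-0.61; SD, n = 2 per group, adjusted p at most 0.000246, limma). In this list 4 rose with the coding length trend removed and 3 without manganese-adapted replicate 1. PHO85, the kinase that phosphorylates Gsy2, fell (-0.53), and the cyclins that direct it there, PCL8 (0.37) and PCL10 (0.26), rose, the call of PCL10 being lost with the length trend removed (adjusted p 0.0540) and without manganese-adapted replicate 1 (0.0524) or 2 (0.152).

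Of 6 transcription factor genes 2 rose (NRG1 and GIS1) and 1 fell, against 33.6% higher and 34.9% lower over all features. The one that fell, MSN4, encodes an activator of the general stress response and went from 217 ± 6.05 to 113 ± 3.30 CPM (log2 fold change -0.94, SD, n = 2, limma adjusted p 3.53e-06). MSN2, its partner, was at 73.7 ± 0.63 and 84.7 ± 0.94 CPM and did not pass (0.20, adjusted p 0.0551). MSN2 passed as higher with a filter of 10 CPM (0.0478), with library size scaling only (0.0454) and with edgeR on recovered reads (0.0446), and was at -0.04 (0.662) with the length trend removed. With the length trend removed 1 of the 6 rose (NRG1; GIS1 had adjusted p 0.0783) and 3 fell, and 2 of the 6 fell without control replicate 1.

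Msn2 and Msn4 bind the stress response element, searched here as AGGGG on both strands in the 500 bases before each start codon of the R64 RefSeq reference, which is strain S288C and not CRY. It was found before 7 of the 10 glycogen genes and before 34.1% of 5992 genes. It occurred at least 2 times before 6 of the 10 and before 8.18% of all. The median GC content of both sets of windows was 36.6%. Among the 10 genes, windows with a match ran from 34.4% (GPH1) to 46.2% (GSY1). Those without were at 34.6% (PIG1), 30.4% (GAC1) and 36.6% (GLG1). The part of GC content in the matches was not tested. All 4 genes that fell held at least 1 match, as did 2 of the 4 that rose (GLG2 and GLC3) and 1 of the 2 that did not pass (GSY1), while PIG1, GAC1 and GLG1 held none. The nearest annotated gene upstream of GLG2, YJL136W-A, lies 41 bases away. Both GLG2 matches, which begin 396 and 107 bases before the start codon, lie past the near edge of YJL136W-A. The post-diauxic shift element (TAAGGGAT or TTAGGGAT, either strand) was found before GAC1 alone and before 2.59% of all genes. No match overlapped another.

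Shown are 250 bases that begin 400 bases before the start codon, a window chosen after the matches were located so that it holds every match of the first 3 genes. GSY2 and GPH1 had the largest falls, GLC3 has the most matches and rose, and PIG1 rose most and has none. Sequences are from the RefSeq R64 genome, 5′ to 3′ on the strand of the gene, with AGGGG or its complement in capitals.
GSY2, R64 chrXII:660316-660565, plus strand: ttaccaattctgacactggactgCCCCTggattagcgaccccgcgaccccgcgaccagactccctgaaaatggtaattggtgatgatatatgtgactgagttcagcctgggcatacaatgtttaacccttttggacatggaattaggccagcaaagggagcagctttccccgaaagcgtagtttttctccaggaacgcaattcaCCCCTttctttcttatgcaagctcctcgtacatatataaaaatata
GPH1, R64 chrXVI:860906-861155, plus strand: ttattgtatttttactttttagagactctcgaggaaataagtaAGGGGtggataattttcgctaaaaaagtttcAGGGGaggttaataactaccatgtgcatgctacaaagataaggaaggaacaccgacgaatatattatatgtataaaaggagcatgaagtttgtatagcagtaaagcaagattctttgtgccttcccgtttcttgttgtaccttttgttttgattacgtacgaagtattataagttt
GLC3, R64 chrV:132720-132969, plus strand: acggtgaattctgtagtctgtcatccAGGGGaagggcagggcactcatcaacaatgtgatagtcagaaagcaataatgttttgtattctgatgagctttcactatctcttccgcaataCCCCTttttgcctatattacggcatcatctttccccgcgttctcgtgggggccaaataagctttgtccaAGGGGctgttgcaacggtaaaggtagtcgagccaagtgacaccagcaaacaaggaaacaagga
PIG1, R64 chrXII:691180-691429, minus strand: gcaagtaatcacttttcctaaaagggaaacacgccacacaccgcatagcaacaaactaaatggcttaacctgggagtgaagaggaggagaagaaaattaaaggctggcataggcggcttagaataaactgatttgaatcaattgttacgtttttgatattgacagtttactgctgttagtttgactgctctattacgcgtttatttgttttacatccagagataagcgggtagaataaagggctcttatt

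In GSY2 the matches begin 377 and 196 bases before the start codon, both on the strand opposite to the gene. Those of GPH1 begin at 357 and 326 bases and those of GLC3 at 374, 282 and 213 bases. A match is a run of letters and not a measured site, and these data hold no binding measurements.

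**Figure D5:**
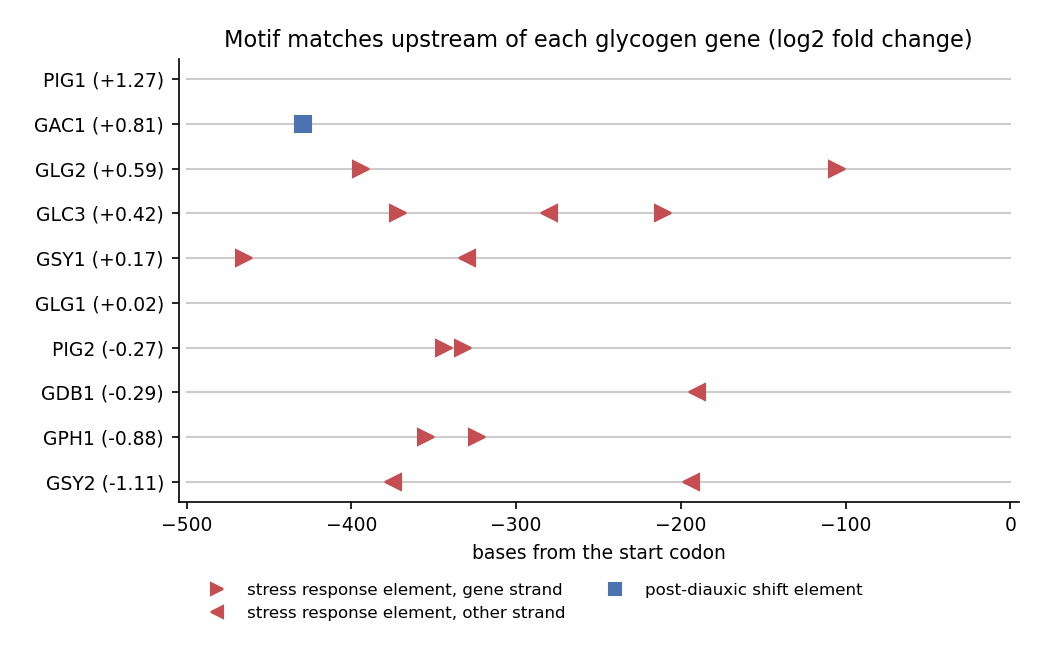
Matches to the stress response element (red triangles, pointing right on the strand of the gene and left on the other strand) and to the post-diauxic shift element (blue square) by distance in bases from the start codon. Genes are ordered by log2 fold change, given in brackets. The 4 lowest carry a red match, as do GSY1 and, among the genes that rose, GLC3 and GLG2. PIG1, GAC1 and GLG1 carry none.

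The trehalose genes, which serve the other storage carbohydrate of yeast, also went both ways: 3 of 7 rose, 3 fell and 1 did not pass (median log2 fold change -0.09), against 33.6% higher and 34.9% lower over all features. ATH1, the acid trehalase, went from 274 ± 24.5 to 495 ± 6.49 CPM (0.85) and TPS3, a regulatory subunit of trehalose synthesis, from 195 ± 11.7 to 122 ± 4.04 CPM (-0.67; SD, n = 2 per group, limma adjusted p at most 4.83e-05). The stress response element was found before 6 of these 7 genes, against 34.1% of all genes, and their windows had a median GC content of 43.2% against 36.6%. A difference between the trehalose and the glycogen genes was not tested.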

How the data were processed

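The deposited table of 7126 features holds, for each of the 4 samples, CPM scaled by the authors with an effective library size, although the columns are headed as counts. Per the submitters' processing notes, the tools were TopHat2 2.0.13 with Bowtie, HTSeq, edgeR and cutadapt 1.8.1, and the build was sacCer3. The sources used here give neither the annotation nor whether counting was stranded. Per gene, the authors also deposited a p-value, its false discovery rate and a log2 fold change. All 100% of CPM values lay within 0.001 reads of a whole number of reads, and CPM recomputed from them with TMM scaling lay within 3.95e-06 of those deposited. Control libraries held 14184276 and 13466475 reads and manganese-adapted libraries 13739798 and 12307870.

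Features with at least 1 CPM in 2 samples (6296) were tested with limma-trend (limma 3.58.1, R 4.3.3) on log2(CPM + 1), which understates changes of low genes, with no covariate, 2 residual degrees of freedom and Benjamini-Hochberg adjustment at 0.05. On recovered reads edgeR 4.0.16 (quasi-likelihood) called 4314 genes and limma called 4313; DESeq2 1.42.0 was a further alternative. The fits were also run on simulated data in which few genes changed. Most features were called here, so that run does not give the error rate of these calls. Over genes, the deviations of same-numbered replicates had a correlation of -0.18 between the groups. With 2 replicates per group this cannot decide whether the numbers pair the samples. Gene lists and members were chosen with earlier results of these data known. Beside the 10 members, the named genes are those of each pathway or regulator list that passed with at least a 1.5-fold change, up to 4 per list. The lists of mating type and deleted genes served as a check and are given by counts, sums and ranges, with STE2, STE3, LEU2 and HIS3 as examples. HIS3, GLC7, PGM2, GLK1, MSN2, NRG1, GIS1, PHO85, PCL8 and PCL10 were named after their values were seen. Coding lengths, coordinates and sequences come from R64 RefSeq (6013 features matched by locus tag). Protein identities use BLOSUM62 with gap penalties of 11 and 1.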

Additional observations from a re-analysis of the deposited data

How the results depend on the processing

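Across 15 alternatives the 10 genes gave 150 values: 137 kept direction and side of the threshold, 10 lost their call and 3 changed sign, none of these 3 past the threshold. With the coding length trend removed GSY1 went to -0.075 and GLG1 to -0.19 (adjusted p 0.465 and 0.0611), GLC3 lost its call and the median of the 10 genes moved from 0.09 to -0.13; this version keeps the 5769 tested features with a length. Over samples left out GLG1 ran from -0.013 (without manganese-adapted replicate 2) to 0.053. GDB1 lost its call whichever library was left out, and PIG2 and GLC3 lost theirs in some of these fits. Each of these fits also called fewer of all features tested than the main fit did. GSY2, GPH1, GLG2, GAC1 and PIG1 kept their calls under all 15 alternatives. With the replicate block 2065 genes were higher and 2131 lower, and with the numbers crossed, an alternative added after the data were seen, 2179 and 2247; neither changed a call among the 10 genes. A left-out library leaves 1 sample in its group, which is assumed to vary like the other group. Pseudocounts of 0.1 and 10 CPM, both other filters, both other scalings, edgeR and DESeq2 changed no call among the 10 genes. Precision is limited by having 2 libraries per group and, for PIG1, with as few as 374 reads in a library, also by counting error.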
